A study of Mus musculus with 24 samples.

Results

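The NOTCH genes described here are 10 genes given as a list by symbol: the receptors Notch1, Notch2 and Notch3, the ligands Jag1, Jag2 and Dll1, the DNA-binding factor Rbpj, and the nuclear effectors Hes1, Hes6 and Hey1. All 10 symbols matched 1 of the 46517 gene entries of the deposited count files, and all 10 passed the filter on low counts, which left 14866 genes. They were followed in βTC3 cells, an insulin-producing mouse tumour line derived from Rip-Tag2 mice, a model of neuroendocrine tumours of the pancreas in which an insulin promoter drives a viral oncogene in beta cells. The cells of every group carried the plasmid PB-31, either alone (control line), with the miR-23b cluster (miR-23b line) or with miR-137 (miR-137 line). Each line was kept 7 d in plain medium (no DOX) or 7 d with doxycycline at 2 µg/ml (7 d DOX), and the miRNA lines were in addition kept 7 d with doxycycline and then 7 d without it (withdrawn). There were 8 groups of 3 libraries, 24 libraries together. The labels name no withdrawn control culture, no second clone of a line, and no date or plate, so within a line doxycycline cannot be told apart from any batch that the untreated cultures had in common. The control line received doxycycline too, so each response of a miRNA line was also tested against that of the control line.

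NOTCH receptors sit in the cell membrane and are activated by ligands of the Jagged and Delta-like families on neighbouring cells. Cleavage by an ADAM protease and then by gamma-secretase frees the intracellular part of the receptor, which enters the nucleus, binds RBPJ and turns a repressor complex into an activator of genes such as Hes1 and Hey1. In the developing pancreas, NOTCH activity through Hes1 is known to hold back endocrine differentiation, and a lower activity accompanies the formation of endocrine cells. Notch1 is a reported target of miR-23b, and the question put to these data is how the members of the pathway stood while the miRNAs were switched on and after they were switched off.

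The miRNA sequences are shown because their seeds define which of the 10 mRNAs hold a matching site. The miR-23b cluster encodes miR-23b-3p, miR-27b-3p and miR-24-3p. RefSeq (GRCm38.p6) gives 3 of the mature sequences as follows, 5′ to 3′, with the seed (bases 2 to 8) in capitals. No 2 of them share a seed.
mmu-miR-27b-3p: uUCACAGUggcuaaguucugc
mmu-miR-24-3p: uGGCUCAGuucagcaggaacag
mmu-miR-137-3p: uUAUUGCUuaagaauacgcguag

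The complements of these seeds, ACTGTGA for miR-27b-3p, CTGAGCC for miR-24-3p and AGCAATA for miR-137-3p, were searched on the transcript strand of 1 annotated 3′ UTR per gene. Sites for miR-23b-3p were not analysed here. Of 12985 genes with a 3′ UTR, 16.5% held the miR-27b-3p match, 17.9% the miR-24-3p match and 9.85% the miR-137-3p match. Among the 10 members, Notch2 held 2 matches to miR-27b-3p and Rbpj held 1 match to miR-137-3p. The other 8 members, Notch1 with its 3′ UTR of 1628 bases among them, held none of the 3 motifs. The Notch2 sites lie in GRCm38 at chr3:98148281-98148307 and chr3:98148403-98148429, plus strand, and the second is followed by an A, as is the Rbpj site at chr5:53657210-53657236, plus strand. The 27 bases around each site are printed below with the match in capitals. A match is a description of the sequence and no measure of binding.
Notch2 first site: ctaggaggcttaggtACTGTGAtattc
Notch2 second site: cctccattgactgccACTGTGAagcac
Rbpj site: cgtgtaagggtcattAGCAATAagata

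Gene counts summed to between 15759849 and 24144737 per library, and 1 count corresponded to a level of 0.0414 to 0.0635 CPM (counts scaled to a common library total). The induced loci matched the labels, with an exception at the miR-137 locus given below. The miR-23b cluster gene Mir27b had a mean of 0.490 CPM in untreated cells of the miR-23b line, 83.4 CPM under DOX and 0.112 CPM once DOX was withdrawn, and of at most 0.0707 CPM in the other lines. Gm26871, the transcript that spans the miR-137 locus, stood at 4.40, 123 and 2.58 CPM in the miR-137 line. It also changed in the miR-23b line. All 4 loci checked (Mir23b, Mir27b, Mir24-1 and Gm26871) were called higher there with 7 d DOX by edgeR. All 4 were also higher against the control response, and all 4 lower after withdrawal. The CPM values are levels of longer RNA assigned to the loci, since mature miRNAs are not measured in polyA libraries. RNA from the plasmid and from the genomic loci cannot be told apart in these counts. All 9 beta cell markers were above the filter. The summed level of each list of 6 duct, acinar, fibroblast, leukocyte or endothelial markers lay between 0.517 and 14.1 CPM in every library, against 14850 to 19800 for the beta cell list. The 3 libraries of a group come from cells plated in triplicate, and p-values measure only the spread between them, which may be technical. Errors of levels are standard deviations (SD) of 3 libraries, and levels are CPM of TMM-scaled library sizes unless TPM is named.

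The 10 members covered a wide range of expression. On the length-adjusted scale of the authors' deposited TPM table, the medians over the 24 libraries were highest for Rbpj (58.6 TPM) and Hes6 (50.6 TPM). Among the 10 members, Notch1 was the most abundant receptor (22.7 TPM) and Jag2 the most abundant ligand (7.68 TPM). Hey1 (4.0 TPM), Hes1 (2.25 TPM) and Dll1 (1.11 TPM) followed. Jag1 (0.750 TPM), Notch2 (0.635 TPM) and Notch3 (0.0400 TPM) were lowest. Per library, Notch3 rested on 6 to 34 counts, Dll1 on 16 to 55 and Hes1 on 31 to 101, against 921 to 2835 for Notch1, so the same relative change is known far less precisely for the first 3.

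**Figure D1:**
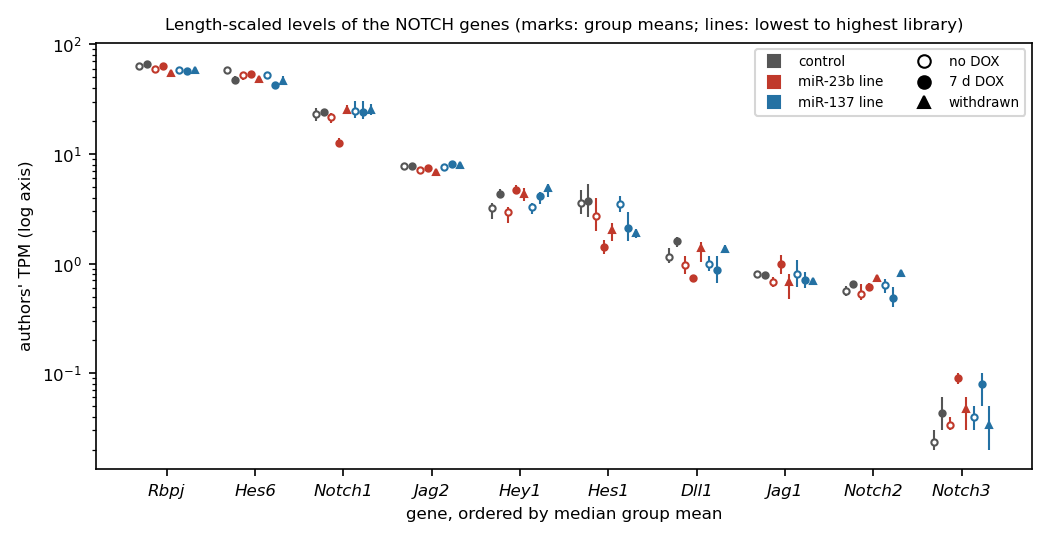
Level of each member in the 8 groups on the authors' deposited TPM scale (log axis), members ordered by the median of the group means. Marks are group means, and vertical lines run from the lowest to the highest library of a group. Rbpj and Hes6 lie highest, with medians over the 24 libraries of 58.6 and 50.6 TPM, and Notch3 lowest, with a median of 0.0400 TPM.

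Doxycycline alone was accompanied by changes in the pathway. In the control line 4 of the 10 members passed edgeR's quasi-likelihood test at an adjusted p below 0.05, 3 higher and 1 lower with 7 d DOX, where 37.8% of all genes tested passed (18.5% higher, 19.3% lower). In the miR-23b line 5 passed, 3 higher and 2 lower, against 57.4% of all genes (28.8% higher, 28.6% lower), and in the miR-137 line 6, 3 higher and 3 lower, against 42.9% (21.0% higher, 21.8% lower). The members thus passed about as often as genes in general, and the size and direction of single members carry the results below. In the test of whether a miRNA line responded differently from the control line, 3 members passed in the miR-23b line, all lower (Notch1, Dll1 and Hes1), against 37.6% of all genes (18.1% higher, 19.4% lower). For the miR-137 line 2 passed, both lower (Hes1 and Rbpj), against 10.7% of all genes (5.90% higher, 4.78% lower). These 2 tests share the control libraries. Between the responses of both miRNA lines, 3 members differed (Notch1 lower, Jag1 and Rbpj higher in the miR-23b line), against 35.2% of all genes (16.8% higher, 18.4% lower).

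**Figure D2:**
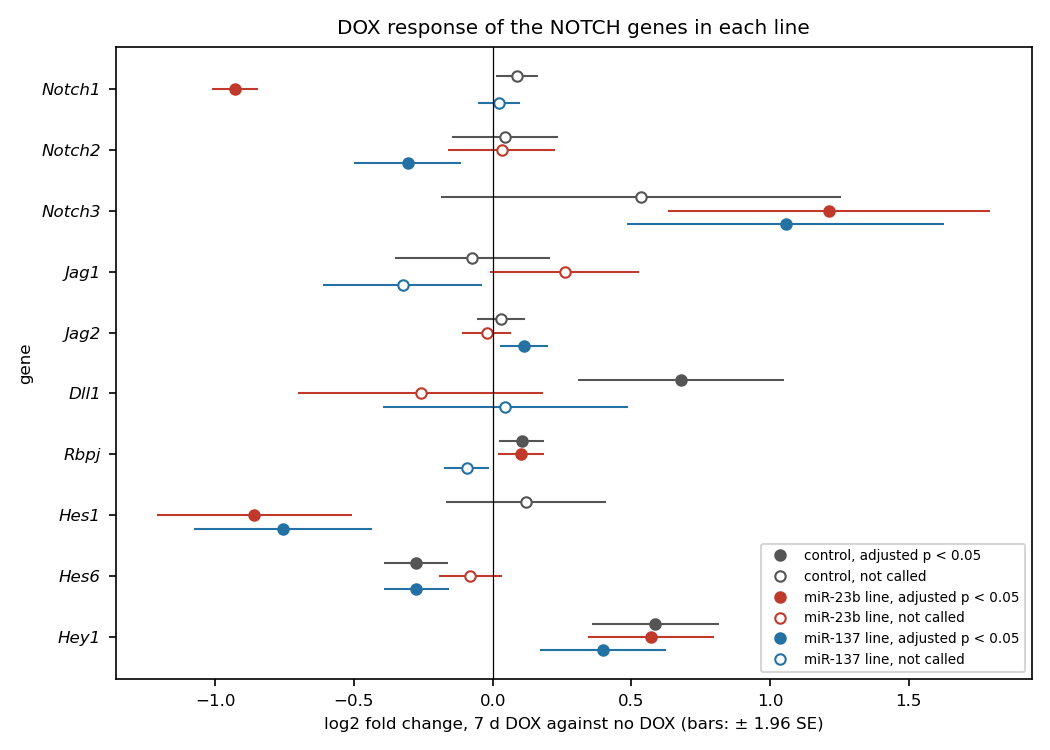
Log2 fold change from no DOX to 7 d DOX of each member in the control, miR-23b and miR-137 lines (points, with bars of the 95% interval; filled points passed edgeR's quasi-likelihood test). Notch1 fell in the miR-23b line alone (-0.93), Hes1 fell in both miRNA lines (-0.86 and -0.76), and Hey1 rose in all 3 lines.

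Notch1 (ENSMUSG00000026923, GRCm38 chr2:26457903-26516663, minus strand) encodes the receptor with the highest level in these cells. In the miR-23b line its libraries stood at 105, 103 and 108 CPM without DOX (105 ± 2.30, SD, n = 3). With 7 d DOX they stood at 55.8, 53.4 and 56.8 (55.3 ± 1.76). After withdrawal they stood at 111, 113 and 121 (115 ± 4.92). The libraries of the 7 d DOX group thus lay below all other 21 libraries, and those of the withdrawn group above those without DOX. Notch1 fell by 0.93 on the log2 scale with DOX (SE 0.04), 1.90-fold, with an adjusted p of 3.83e-21 by edgeR's quasi-likelihood test.

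In the control line Notch1 stood at 103, 103 and 98.1 CPM without DOX and at 107, 105 and 111 with 7 d DOX, a difference of 0.09 on the log2 scale that did not pass (adjusted p = 0.0755, edgeR). miR-137 cells had values of 112, 102 and 110.2 without DOX and of 106, 110.7 and 112 with 7 d DOX, and these groups overlapped. The response of the miR-23b line was lower than that of the control line by 1.01 (log2 -1.01, SE 0.06, adjusted p = 4.98e-17, edgeR) and lower than that of the miR-137 line by 0.95 (log2 -0.95, SE 0.06, adjusted p = 3.24e-16, edgeR). Of all 14866 genes, 3.02% lay as far below 0 as Notch1 in the difference from the control line. For miR-137 the difference from the control response was -0.06 and did not pass, with a 95% interval of -0.17 to 0.04. Over the 8 groups, neighbours in the order of Notch1 means overlapped everywhere except above the miR-23b line with 7 d DOX, which stood alone at the bottom.

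Beta cell markers also changed with DOX, in all 3 lines. In the miR-23b line with 7 d DOX, 8 of the 9 beta cell markers were lower and 1, Chga, was higher, where 57.4% of all genes passed. In the miR-137 line 5 were lower and 3 higher, against 42.9% of all genes, and in the control line 3 were lower and 3 higher, against 37.8%. Compared with the control response, 5 of the 9 were lower and 1 higher in the miR-23b line, against 37.6%. In the miR-137 line 3 of the 9 were lower and 0 higher than the control response, against 10.7%. The list's summed level lay between 14850 and 15430 CPM in the miR-23b libraries with 7 d DOX and between 16630 and 19800 in all others. The duct list (10.3 to 14.1 CPM over all libraries, 11.4 to 11.9 in this group) did not stand apart. The part of beta cell state in the Notch1 result was not tested. As in any bulk sample, fewer cells expressing a gene and less RNA per cell cannot be told apart.

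**Figure D3:**
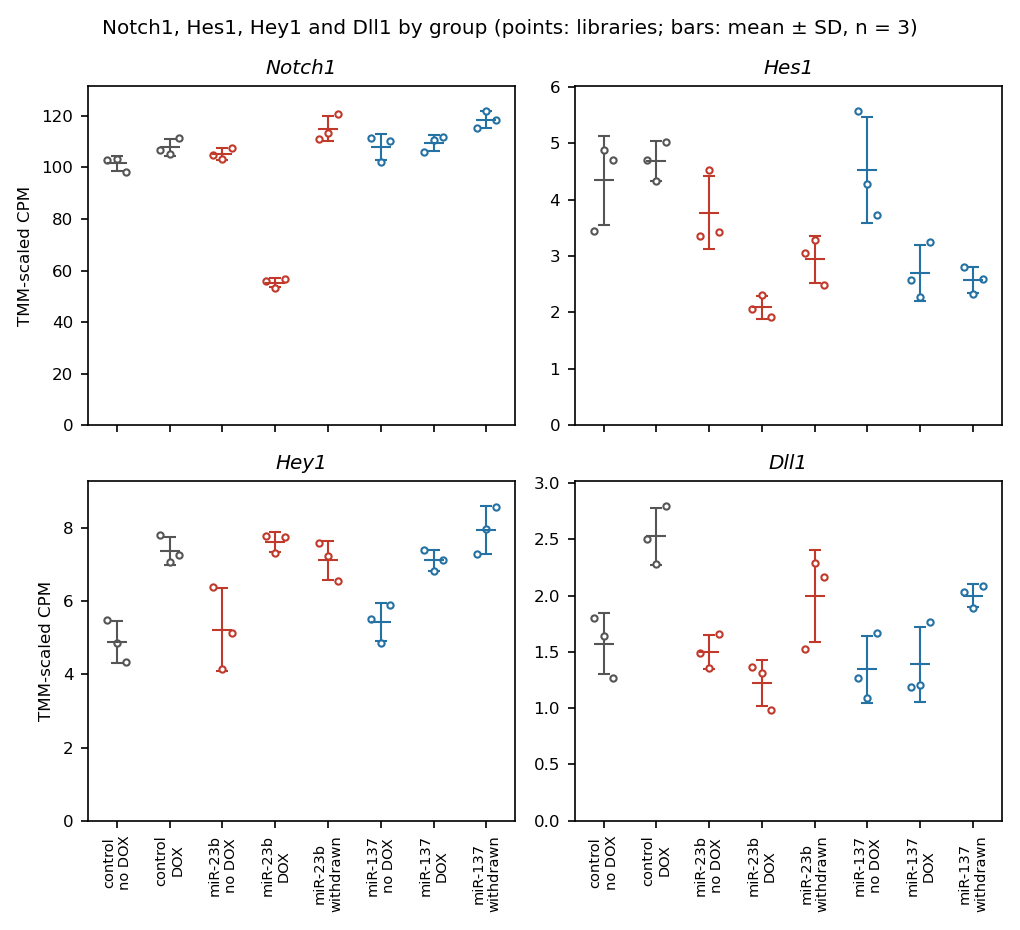
CPM of Notch1, Hes1, Hey1 and Dll1 in the 8 groups (points are libraries, horizontal bars the mean, vertical bars the SD, n = 3; linear axes from 0). Notch1 stands near 55.3 CPM in the miR-23b line with 7 d DOX and at or above 98.1 CPM in every library of the other groups.

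The other receptors behaved differently from Notch1. Notch2 (ENSMUSG00000027878, chr3:98013527-98150361, plus strand), the member with the miR-27b-3p matches printed above, stood at 8.53, 7.83 and 7.55 CPM in untreated cells of the miR-23b line. With 7 d DOX it stood at 7.58, 8.45 and 8.38, and after withdrawal at 10.3, 10.4 and 10.6. The first 2 of these groups overlapped and the withdrawn group lay above both. Notch2 in the miR-137 line stood at 8.54, 9.42 and 8.97 CPM without DOX and at 6.48, 6.88 and 8.62 with 7 d DOX. It fell by 0.31 there (SE 0.10, adjusted p = 0.0107, edgeR), but the groups overlapped by 1 library, the difference from the control response did not pass (-0.35, adjusted p = 0.101, but 0.0341 and 0.0267 without control no DOX library 1 or miR-137 7 d DOX library 3), and the fall no longer passed without no DOX library 2 (-0.27, adjusted p = 0.0607), 7 d DOX library 1 (-0.23, adjusted p = 0.0939) or 7 d DOX library 2 (-0.26, adjusted p = 0.0637). In the control line Notch2 stood at 9.23, 7.67 and 7.25 CPM without DOX and at 8.66, 7.74 and 8.63 with it, and the groups overlapped.

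Notch3 (ENSMUSG00000038146, chr17:32120820-32166852, minus strand), a receptor best known from vascular mural cells, was near the limit of detection. miR-23b cells had values of 0.711, 0.513 and 0.686 CPM without DOX, and of 1.37, 1.39 and 1.66 with 7 d DOX (34 and 89 counts over the 3 libraries). These groups did not overlap, and Notch3 rose by 1.21 on the log2 scale (SE 0.30, adjusted p = 6.12e-04, edgeR). Libraries of the miR-137 line stood at 0.827, 0.637 and 0.557 CPM without DOX and at 0.823, 1.49 and 1.94 with it. The rise of 1.06 there (SE 0.29, adjusted p = 0.00311, edgeR) came with overlapping libraries and did not pass on log2(TPM + 1) (adjusted p = 0.0531). In the control line the values were 0.649, 0.365 and 0.423 without DOX and 0.601, 0.570 and 0.965 with it, a difference of 0.53 that did not pass (adjusted p = 0.268). The response differed from the control response by 0.68 in the miR-23b line, with a 95% interval of -0.28 to 1.64, and by 0.52 in the miR-137 line, with an interval of -0.42 to 1.47. Neither passed, so a rise beyond that of the control line was not detectable at this depth. Endothelial markers summed to 1.13 to 1.85 CPM in the miR-23b line with 7 d DOX and to 0.517 to 1.17 without. In the miR-137 line they summed to 0.744 to 1.39 with DOX and 1.00 to 1.45 without. Their part in the Notch3 result was not tested.

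Among the ligands of the member list, Jag2 (ENSMUSG00000002799, chr12:112907819-112929776, minus strand), a Jagged ligand, had the highest level and moved least. Its group means lay between 61.7 and 73.0 CPM, a ratio of 1.18 between the highest and the lowest group. The miR-137 line had 68.7, 66.7 and 67.4 CPM without DOX and 70.5, 74.5 and 74.0 with 7 d DOX. The groups did not overlap and Jag2 rose by 0.11 (SE 0.04, adjusted p = 0.0393, edgeR), a call that was lost under 7 of 13 alternatives. These were DESeq2 (adjusted p = 0.0686), both TPM fits (0.250 at most) and leaving out library 2 or 3 of either group (0.131 at most). In the other lines its 7 d DOX and no DOX libraries overlapped, with 62.6, 62.1 and 63.2 CPM against 61.1, 60.0 and 64.3 in the miR-23b line.

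Jag1 (ENSMUSG00000027276, chr2:137081456-137116644, minus strand), the other Jagged ligand, pointed in opposite directions in the miRNA lines. Libraries of the miR-23b line stood at 3.42, 4.38 and 4.69 CPM without DOX and at 4.61, 5.92 and 4.38 with 7 d DOX. For miR-137 cells the values were 3.91, 3.96 and 5.40 without DOX and 3.03, 3.39 and 4.17 with it. Both pairs of groups overlapped, and neither response passed (0.26, adjusted p = 0.105, and -0.32, adjusted p = 0.0711, edgeR). The miR-23b value passed on both TPM scales (0.0393 at most) and lay between 0.10 and 0.34 when a library was left out. The miR-137 value lay between -0.44 and -0.16 when a library was left out, and passed without no DOX library 1 or 2 or 7 d DOX library 3 (adjusted p = 0.0476 at most). The direct test gave a response higher in the miR-23b line than in the miR-137 line by 0.58 (SE 0.20, adjusted p = 0.0210, edgeR). That call was lost with DESeq2 (adjusted p = 0.0704) and on the TPM scale (0.0808 at most). It was also lost without miR-23b no DOX library 1 (0.48, adjusted p = 0.0701), miR-23b 7 d DOX library 2 (0.42, 0.115), miR-137 no DOX library 3 (0.43, 0.110) or miR-137 7 d DOX library 1 (0.49, 0.0726). In the control line Jag1 stood at 4.39, 4.39 and 4.07 without DOX and 4.20, 4.09 and 3.91 with it. The response of the miR-23b line did not differ from it past the threshold (0.33, adjusted p = 0.194).

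Dll1 (ENSMUSG00000014773, chr17:15367354-15376872, minus strand), a Delta-like ligand, rose with doxycycline in the control line alone, by the test within each line. In control cells it stood at 1.80, 1.64 and 1.27 CPM without DOX and at 2.50, 2.28 and 2.79 with 7 d DOX. The groups did not overlap and Dll1 rose by 0.68 on the log2 scale (SE 0.19, adjusted p = 0.00415, edgeR), 1.60-fold. This rise did not pass with limma on log2(TPM + 0.1) (0.44, adjusted p = 0.0785) or log2(TPM + 1) (0.27, adjusted p = 0.0531). The miR-23b line had 1.49, 1.35 and 1.66 without DOX and 1.37, 1.31 and 0.986 with it. These overlapped, and the difference of -0.26 did not pass (adjusted p = 0.339). The response of the miR-23b line was lower than that of the control line by 0.94 (log2 -0.94, SE 0.30, adjusted p = 0.0108, edgeR), and this call was kept under all 19 alternatives, with adjusted p values up to 0.0478. Dll1 in the miR-137 line stood at 1.27, 1.09 and 1.67 without DOX and at 1.18, 1.21 and 1.77 with it. Its response differed from that of the control line by -0.63 (adjusted p = 0.178) and from that of the miR-23b line by 0.30 in size (-0.30 for miR-23b minus miR-137, 95% interval -0.93 to 0.32), so the miRNA lines were not told apart. The Dll1 values rest on 76 to 153 counts per group of 3 libraries.

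Rbpj (ENSMUSG00000039191, chr5:53466152-53657362, plus strand), which binds DNA for the pathway and carries the miR-137-3p match, varied little. Its group means lay between 40.1 and 47.0 CPM. In control cells it stood at 44.1, 43.4 and 43.5 CPM without DOX and at 47.6, 45.8 and 47.5 with 7 d DOX. For miR-23b cells the values were 44.1, 42.7 and 42.1 without DOX and 45.0, 47.2 and 45.9 with it. In both lines the groups did not overlap, and the rises were 0.11 and 0.10 (adjusted p = 0.0408 and 0.0342, edgeR, SE 0.04 each). These rises were lost under 10 and 8 of 13 alternatives, DESeq2 (adjusted p = 0.134 and 0.129) and the removal of 5 and 3 single libraries (up to 0.140 and 0.132) among them. Rbpj in the miR-137 line stood at 45.3, 42.9 and 43.5 CPM without DOX and at 40.1, 41.6 and 41.6 with 7 d DOX, a difference of -0.09 (adjusted p = 0.0684). Its response there was lower than in the control line by 0.20 (log2 -0.20, SE 0.06, adjusted p = 0.0221, edgeR), and the response of the miR-23b line was higher than that of the miR-137 line by 0.20 (SE 0.06, adjusted p = 0.00833, edgeR). The second of these lost its call only on the TPM scale (adjusted p = 0.151 at most). The difference from the control response was lost under 9 of 19 alternatives, with DESeq2 (adjusted p = 0.0827) and without any 1 of 5 libraries (up to 0.0795) among them. Rbpj has processed pseudogenes and overlaps the antisense transcripts Gm10441 and Gm40304, and the sources used here do not give the strand setting of the counting, which leaves small differences of Rbpj uncertain. Gene models on the opposite strand also overlap Notch1 (0610009E02Rik and Gm13568), Notch3 (Gm17276) and Dll1 (A930024N18Rik), so the unknown strand setting limits these members too. On the same strand, Gm42819 and Gm42820 overlap Notch2, Mir6996 overlaps Notch1 and Mir6941 overlaps Jag2. Reads in those overlaps can be ambiguous under any strand setting, and their effect was not tested.

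Hes1 (ENSMUSG00000022528, chr16:30064384-30067796, plus strand), a repressor and the best known target of NOTCH, was lower in both miRNA lines with DOX. In the miR-23b line it stood at 3.36, 4.52 and 3.43 CPM without DOX and at 2.05, 2.31 and 1.91 with 7 d DOX. In the miR-137 line it stood at 5.57, 4.28 and 3.73 without DOX and at 2.57, 2.28 and 3.25 with it. In control cells it stood at 3.44, 4.87 and 4.71 without DOX and at 4.70, 4.32 and 5.03 with it. The 7 d DOX libraries lay below all no DOX libraries in each miRNA line, and the groups overlapped in the control line.

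Hes1 fell by 0.86 on the log2 scale in the miR-23b line (SE 0.18, adjusted p = 8.80e-05, edgeR), 1.81-fold. It fell by 0.76 in the miR-137 line (SE 0.16, adjusted p = 2.26e-04, edgeR), 1.69-fold. Against the control response, which was 0.12 and did not pass (adjusted p = 0.553), the difference was -0.98 for the miR-23b line (SE 0.23, adjusted p = 8.44e-04, edgeR) and -0.88 for the miR-137 line (SE 0.22, adjusted p = 0.00649, edgeR). Hes1 fell in the miR-23b line, where Notch1 was 1.90-fold lower, and in the miR-137 line, where Notch1 did not change past the threshold. The part of Notch1 in the Hes1 result was not tested. The responses of both miRNA lines (miR-23b minus miR-137) differed by -0.10 (95% interval -0.58 to 0.38), an interval that spans 0, and leaving out single libraries turned the sign of this value. On the TPM scale the differences from the control response no longer passed (adjusted p up to 0.126 and 0.288), and on log2(TPM + 1) neither did the fall in the miR-137 line (adjusted p = 0.0532).

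Hey1 (ENSMUSG00000040289, chr3:8663359-8667256, minus strand), a repressor of the same wider family, moved the opposite way and in every line. In control cells it stood at 5.49, 4.87 and 4.34 CPM without DOX and at 7.81, 7.08 and 7.26 with 7 d DOX. miR-23b cells had values of 6.40, 4.15 and 5.15 without DOX and of 7.80, 7.32 and 7.77 with it. miR-137 cells had values of 5.51, 4.87 and 5.90 without DOX and of 7.41, 6.83 and 7.14 with it. The groups did not overlap in any of the 3 lines. The rises were 0.59 in the control line (SE 0.12, adjusted p = 1.04e-04, edgeR), 0.57 in the miR-23b line (SE 0.12, adjusted p = 6.39e-05, edgeR) and 0.40 in the miR-137 line (SE 0.12, adjusted p = 0.00480, edgeR). In the miR-137 line the rise missed the threshold without no DOX library 2 (0.32, adjusted p = 0.0506) and on the TPM scale (adjusted p up to 0.112). No difference between these responses passed: that of the miR-137 line from the control line was -0.19 (95% interval -0.51 to 0.14) and that between the miRNA lines 0.17 (interval -0.15 to 0.50).

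Hes6 (ENSMUSG00000067071, chr1:91411483-91414038, minus strand), a HES family protein known to counteract Hes1, fell slightly in control and miR-137 cells. In control cells it stood at 41.0, 45.7 and 44.3 CPM without DOX and at 34.5, 39.6 and 33.7 with 7 d DOX. Libraries of the miR-137 line stood at 41.0, 42.9 and 38.1 without DOX and at 34.0, 33.9 and 33.1 with it. Both pairs of groups were apart, and both log2 changes were -0.28 (SE 0.06, adjusted p = 2.12e-04 and 2.27e-04, edgeR). Libraries of the miR-23b line stood at 42.5, 43.8 and 38.1 without DOX and at 40.2, 38.6 and 39.1 with it, with overlap. The difference of the miR-23b response from the control response was 0.20 and did not pass (adjusted p = 0.0581), although it passed under 7 of 19 alternatives, for example without 7 d DOX library 2 of the control line (0.28, adjusted p = 0.00808).

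**Figure D4:**
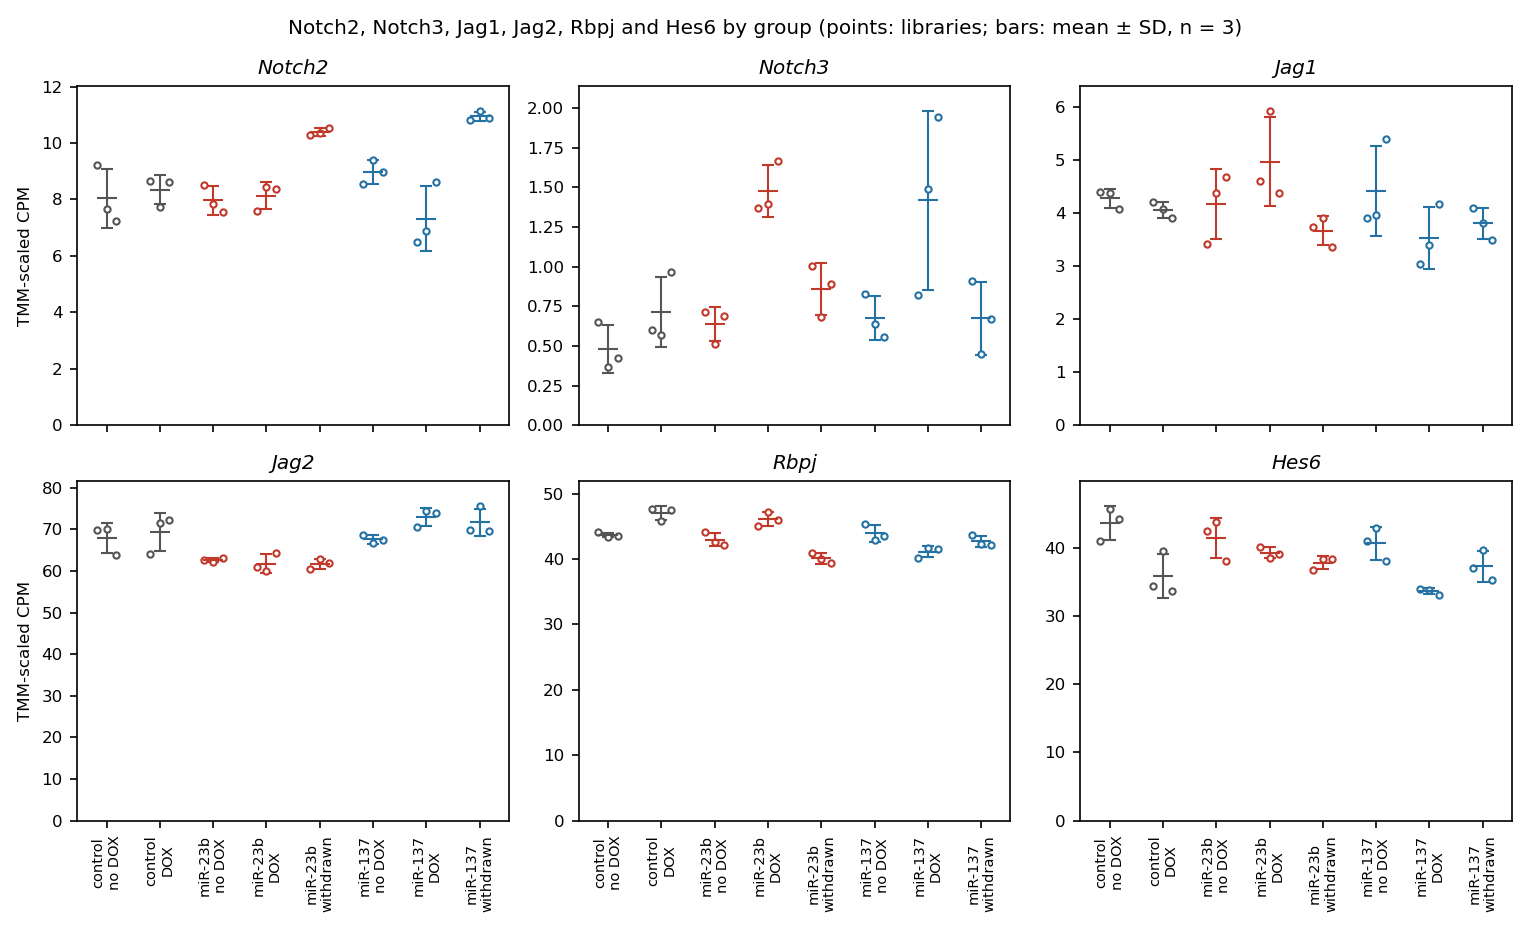
CPM of Notch2, Notch3, Jag1, Jag2, Rbpj and Hes6 in the 8 groups (points are libraries, horizontal bars the mean, vertical bars the SD, n = 3; linear axes from 0). Notch2 lies highest in both withdrawn groups (means of 10.4 and 10.9 CPM), and Notch3 in both miRNA lines with 7 d DOX (1.48 and 1.42 CPM).

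Withdrawal of doxycycline was followed by a return of Notch1. In the miR-23b line 7 members differed between the withdrawn and the 7 d DOX groups, 4 higher and 3 lower, where 52.2% of all genes passed (26.4% higher, 25.8% lower). Notch1 rose by 1.06 (SE 0.04, adjusted p = 2.21e-22, edgeR), Dll1 by 0.66 (adjusted p = 0.00923), Hes1 by 0.48 (adjusted p = 0.0343) and Notch2 by 0.35 (adjusted p = 0.00187). Notch3 fell by 0.75 (adjusted p = 0.0231), Jag1 fell by 0.45 (adjusted p = 0.00821) and Rbpj fell by 0.20 (adjusted p = 1.40e-04). The libraries of both groups did not overlap for these 7, nor for Hes6, which did not pass (-0.06, adjusted p = 0.455, edgeR). The share of all genes without overlap was not computed, so the lack of overlap only describes the libraries. Hes1 stood at 3.06, 3.28 and 2.48 CPM after withdrawal, above the 7 d DOX libraries and below the 3 no DOX libraries. The Hes1 call was lost under 7 of 13 alternatives, DESeq2 (adjusted p = 0.0678) and the removal of library 1 or 3 with 7 d DOX or library 1 or 2 after withdrawal (up to 0.125) among them. Without library 2 of the withdrawn group 4 of the 10 members passed, as Dll1 (0.55, adjusted p = 0.0599) and Notch3 (-0.61, adjusted p = 0.104) missed the threshold as well. Notch3 also missed it with DESeq2 (adjusted p = 0.0909) and without 7 d DOX library 3 (0.0689), Notch2 on both TPM scales (adjusted p = 0.134 at most), and Jag1 without 7 d DOX library 2 (-0.29, adjusted p = 0.133).

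Against the no DOX culture of the same line, 3 members were higher in the withdrawn miR-23b cells and none lower, where 39.8% of all genes passed (19.2% higher, 20.6% lower). Notch1 was higher by 0.13 (SE 0.04, adjusted p = 0.00759, edgeR), Notch2 by 0.39 (adjusted p = 0.00152) and Hey1 by 0.48 (adjusted p = 0.00155). Notch1 thus stood 1.09-fold above its level without DOX, and missed the threshold without withdrawn library 3 (0.10, adjusted p = 0.0606) and on the TPM scale (0.243). Hey1 missed it without no DOX library 2 (0.32, adjusted p = 0.0503). Hes1 was at -0.38 and did not pass (adjusted p = 0.0817). The labels give no untreated culture of the same total length, so the extra 7 d in culture and the earlier doxycycline cannot be told apart. The no DOX culture was also not free of cluster RNA. Of the 4 induced loci, 2 were called higher and 0 lower in untreated miR-23b than control cells, where 6.37% of all genes passed. After withdrawal 2 of the 4 were lower and 1 higher than without DOX. The part of this no DOX level in the Notch1 result was not tested.

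In the miR-137 line 4 members differed between the withdrawn and the 7 d DOX groups, 3 higher and 1 lower, where 29.5% of all genes passed (14.7% higher, 14.8% lower). Notch2 rose by 0.59 (SE 0.09, adjusted p = 4.04e-06, edgeR), from 6.48, 6.88 and 8.62 to 10.8, 11.1 and 10.9 CPM. Dll1 rose by 0.55 (adjusted p = 0.0335) to 2.03, 1.89 and 2.08 CPM, and Notch1 by 0.11 (adjusted p = 0.0197) to 115, 122 and 118 CPM. Notch3 fell by 1.04 (adjusted p = 0.00363) to 0.907, 0.449 and 0.667 CPM. Without library 1 of the 7 d DOX group 2 members passed, as Dll1 (0.45, adjusted p = 0.144) and Notch1 (0.09, adjusted p = 0.140) missed the threshold. Dll1 also missed it without 7 d DOX library 2 (adjusted p = 0.155) or withdrawn library 1 or 3 (up to 0.0956), Notch1 without withdrawn library 2 or 3 (up to 0.122), and Notch3 without 7 d DOX library 3 (-0.79, adjusted p = 0.0560). The Dll1 call was also lost with DESeq2 (adjusted p = 0.133) and with no filter on low counts (0.0539), and that of Notch1 on both TPM scales (0.06, adjusted p = 0.815 at most). Hes1 stood at 2.81, 2.33 and 2.58 CPM after withdrawal, within the range of the 7 d DOX libraries.

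Against the no DOX culture of the miR-137 line, 5 members differed, 4 higher and 1 lower, where 43.4% of all genes passed (21.6% higher, 21.7% lower). The lower one was Hes1, at -0.81 (SE 0.16, adjusted p = 6.25e-05, edgeR), while Gm26871 was back at 2.58 CPM. The higher ones were Dll1 (0.59, adjusted p = 0.0154), Hey1 (0.56, adjusted p = 5.84e-05), Notch2 (0.28, adjusted p = 0.00906) and Notch1 (0.14, adjusted p = 0.00324). Without library 2 of the no DOX group 3 members passed, as Dll1 (0.44, adjusted p = 0.124) and Notch1 (0.09, adjusted p = 0.0794) missed the threshold. Dll1 also missed it with DESeq2 (adjusted p = 0.0829) and on both TPM scales (0.0772 at most), Notch1 on both TPM scales (0.03, adjusted p = 0.895 at most), and Notch2 on log2(TPM + 0.1) (adjusted p = 0.0519). Hey1 stood at 7.30, 7.99 and 8.59 CPM after withdrawal in this line and at 7.59, 7.25 and 6.55 in the miR-23b line, so it remained above all no DOX libraries of its line in both.

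The untreated lines were also compared with each other. Without DOX, 0 of the 10 members passed edgeR's test between the miR-23b and control lines, where 6.37% of all genes passed (3.59% higher, 2.78% lower). Between the miR-137 and control lines 0 passed as well, where 2.70% of all genes did (1.89% higher, 0.814% lower). At an unadjusted p below 0.05 by edgeR there was 1 member in each comparison, and DESeq2 called 0 in each. The shares of all genes at these 2 settings are not given here. The members were Jag2 for miR-23b (-0.12, unadjusted p = 0.0148, libraries apart) and Notch1 for miR-137 (0.09, unadjusted p = 0.0316). The miR-23b groups had the lowest Jag2 means, 61.7 to 62.6 CPM, and the next group stood at 67.6. Without library 3 of the control group without DOX, 1 member passed between the miR-23b and control lines. Over all such removals 465 to 676 genes passed there. Notch1 stood at means of 102, 105 and 108 CPM in the control, miR-23b and miR-137 lines.

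A further 65 genes of the pathway were read from 9 lists by role, and 59 passed the filter on low counts. Of these, 15 passed in the control line with 7 d DOX (6 higher, 9 lower), where 37.8% of all genes did. In the miR-23b line 32 passed (23 higher, 9 lower), against 57.4% of all genes, and in the miR-137 line 25 (15 higher, 10 lower), against 42.9%. In the difference of the miR-23b line from the control line 16 were higher and 8 lower, with a median of 0.08 on the log2 scale against -0.01 over all genes. In that of the miR-137 line 5 were higher and 2 lower, where 10.7% of all genes passed, with a median of 0.03 against 0.00 over all genes. The counts per list below are for the miR-23b line against the control line, where 37.6% of all genes passed in either direction.

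Genes of ligand endocytosis, which ligand-bearing cells need to activate a receptor, numbered 6, with 5 higher and 1 lower. Neurl1a, a ubiquitin ligase of Notch ligands, led with 0.74 (SE 0.12, adjusted p = 3.10e-06, edgeR): it stood at 14.2 CPM without DOX and 25.0 with 7 d DOX in the miR-23b line. It also rose in the miR-137 line (0.56, adjusted p = 8.27e-07). Of 10 cleavage genes, 4 were higher and 1 lower. Aph1b (0.68, adjusted p = 2.83e-06) and Aph1a (0.42, adjusted p = 0.00473), subunits of gamma-secretase, and Adam17 (0.39, adjusted p = 7.62e-05), a sheddase, were higher. In control cells Aph1b fell by 0.33 (adjusted p = 9.53e-04) with DOX, while it rose by 0.36 in the miR-23b line (adjusted p = 7.34e-05).

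Of 10 genes of receptor trafficking and turnover, 2 were higher and 1 lower. The ubiquitin ligase family member Dtx3 was higher by 0.35 in the difference (adjusted p = 2.50e-04, edgeR), where it fell by 0.50 in control cells and by 0.16 in the miR-23b line. Dtx1, of the same family, was lower (-0.29, adjusted p = 5.39e-04). The other higher gene, Dtx4 (0.86, adjusted p = 0.0204), stood at 2.18 CPM or less in all groups and was named after its value was seen. Of 8 coactivators, 1 was higher and 2 lower. Maml1, which joins RBPJ and the receptor fragment in the active complex, was lower by 0.42 (adjusted p = 2.69e-04), with a rise of 0.48 in control cells and a change of 0.06 that did not pass in the miR-23b line (adjusted p = 0.450). The acetyltransferase Kat2b was higher by 0.22 (adjusted p = 0.00302).

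Of 11 corepressors 2 were higher and 2 lower, among them the Groucho family members Tle2 (0.49, adjusted p = 2.26e-04, edgeR) and Tle3 (-0.30, adjusted p = 7.84e-05). Tle2 rose and Tle3 fell with DOX in each of the 3 lines, and in the miR-23b line by 0.77 and 0.50. Among 5 glycosylation genes 1 was higher, and among the other receptors and ligands none of 4 passed. Among the other HES and HEY factors 1 of 4 passed, Hes7 (1.3, adjusted p = 0.0297), which stood at 1.06 CPM or less and was named after its value was seen. Neurod1, an endocrine differentiation factor and the one proneural gene that passed the filter, was lower by 0.26 (adjusted p = 0.00422), a call lost on both TPM scales (-0.14, adjusted p = 0.225 at most). Neurog3, which Hes1 is known to repress in the developing pancreas, had 0 counts in all 24 libraries, which allows a level of up to 0.190 CPM in the shallowest (3 counts, counting error only).

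**Figure D5:**
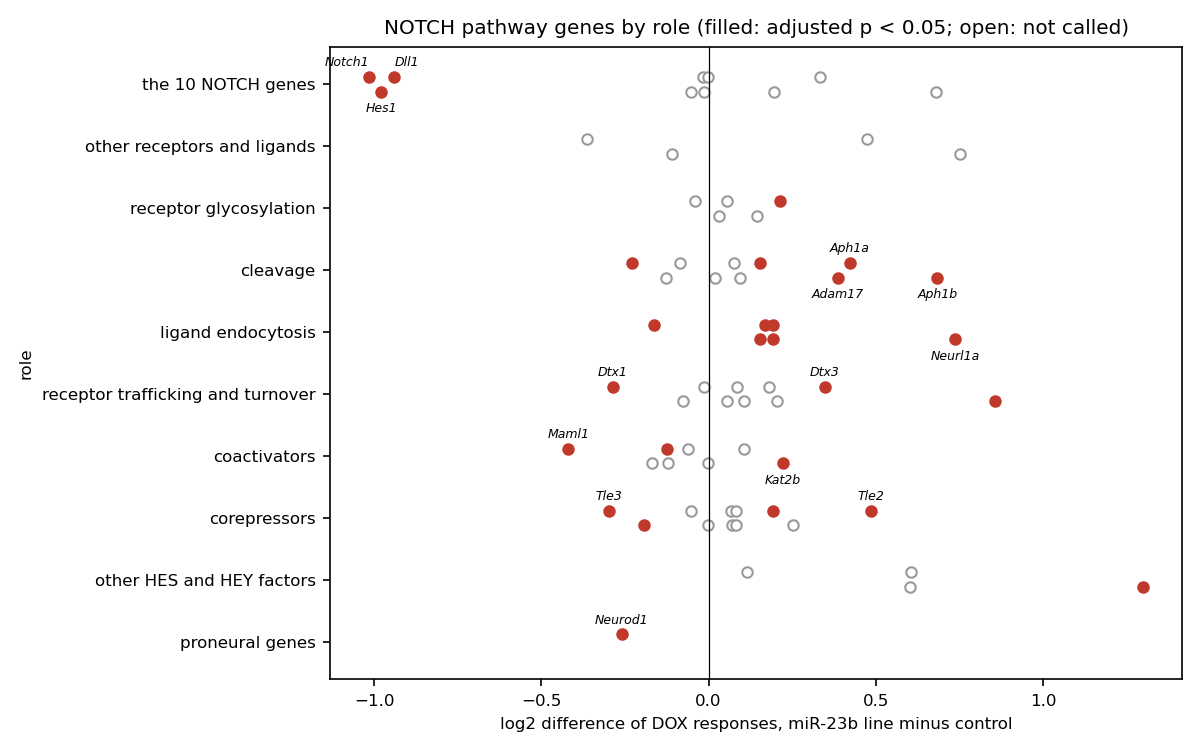
Difference between the responses of the miR-23b and control lines (log2) for each of the 10 members and the 59 other pathway genes tested, by role; filled points passed edgeR's quasi-likelihood test. Notch1, Hes1 and Dll1 lie near -1.01, -0.98 and -0.94, and Neurl1a at 0.74 and Aph1b at 0.68 lie on the other side of 0.

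The genes whose levels were most like those of Notch1 were ranked by Pearson's r of log2 CPM over the 24 libraries, among 10735 genes that reach 5 CPM in a group and have a regular symbol. They were Gpd2 (r = 0.982), the mitochondrial glycerol phosphate dehydrogenase, Pkdcc (0.977), Hip1r (0.976), Nup50 (0.975), a nuclear pore protein, and Slc2a2 (0.969), the glucose transporter of beta cells. The likeness came largely from the miR-23b line with 7 d DOX: over the other 21 libraries the same genes had r between 0.346 and 0.657. Gpd2 stood at 119 CPM there and at 263 to 341 in all other libraries, and Slc2a2 at 1.85 against 7.14 to 10.8. All points share library depth and the 8 groups, so these values describe the libraries and carry no test.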

How the data were processed

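PolyA RNA from the 24 libraries was prepared with a stranded kit, per the labels' protocols. For each sample the authors deposited raw counts of reads by gene, and their joint count table of all samples held identical values (0 differing). A further deposited table holds TPM values, which the authors adjusted for transcript length and scaled to a common total, with column sums of 999999.3 to 1000001.3. Per the submitters' processing notes, the tools were featureCounts, RSEM 1.2.19, HTSeq 0.6.1, STAR 2.4.0g and cutadapt 1.3, with the builds GRCm38 and mm10. The sources used here give neither the strand setting nor which tool made which table. Reads outside any gene (9.62% to 12.1%) and multiply aligned reads (25.4% to 27.7%) were left out of library sizes. Libraries of a group differed by more than sampling noise (chi-square per degree of freedom 1.49 to 3.88), so none was counted as a duplicate.

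The counts entered edgeR 4.0.16 (R 4.3.3), where filterByExpr chose the genes, TMM scaled the libraries and 1 model with 8 group means was fitted to all 24 libraries (common coefficient of biological variation 3.00%). Each of the 12 comparisons was a contrast of these means under edgeR's quasi-likelihood F test, with Benjamini-Hochberg adjustment over all 14866 genes and a threshold of 0.05. The standard error (SE) of a log2 fold change is its size divided by the square root of F, and 95% intervals are 1.96 SE. The code was tested on simulated data. Gene positions, strands and 3′ UTRs come from GENCODE M21 (GRCm38). The annotation's transcript with the best principal-isoform tag, then the longest, stood for each gene. Intervals, SE and the limit of 3 counts for a gene with 0 counts cover these libraries and counting error only.

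The members and all lists were chosen with earlier results of these data known. All members were named whatever their values. Of the 65 other pathway genes, up to 12 were named: those called in the difference between the miR-23b and control responses with at least 5 CPM in a group, by size. One gene that met this rule is not reported here. The 5 genes most like Notch1 were named by Pearson's r of log2 CPM (prior count 2). Alternatives were DESeq2's size factors in edgeR, no filter on low counts, a replicate block, only the compared groups, DESeq2 1.42.0, limma 3.58.1 on log2(TPM + 1) and log2(TPM + 0.1) with the same genes, and leaving out each library in turn.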

Additional observations from a re-analysis of the deposited data

Results flagged for a closer look

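These results are listed because the response to DOX of 1 line differed from that of another by the test of the difference itself, edgeR's quasi-likelihood test with adjusted p below 0.05 (3 libraries per group). Values are log2 differences between responses. Against the control line, the miR-23b line responded lower in Notch1 (-1.01, adjusted p = 4.98e-17), Hes1 (-0.98, adjusted p = 8.44e-04) and Dll1 (-0.94, adjusted p = 0.0108). Against the control line, the miR-137 line responded lower in Hes1 (-0.88, adjusted p = 0.00649) and Rbpj (-0.20, adjusted p = 0.0221). Against the miR-137 line, the miR-23b line responded lower in Notch1 (-0.95, adjusted p = 3.24e-16) and higher in Jag1 (0.58, adjusted p = 0.0210) and Rbpj (0.20, adjusted p = 0.00833). Of 19 alternatives, the Jag1 call was lost under 7 and the Rbpj call of the miR-137 line against the control line under 9. The Rbpj call between the miRNA lines and both Hes1 calls were each lost under 2, the TPM scales. Of all genes, 37.6%, 10.7% and 35.2% passed in these comparisons, in the order given.

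Of the other pathway genes, those higher in the miR-23b response than in the control response were Neurl1a (0.74, adjusted p = 3.10e-06), Aph1b (0.68, adjusted p = 2.83e-06), Tle2 (0.49, adjusted p = 2.26e-04), Aph1a (0.42, adjusted p = 0.00473), Adam17 (0.39, adjusted p = 7.62e-05), Dtx3 (0.35, adjusted p = 2.50e-04) and Kat2b (0.22, adjusted p = 0.00302), by edgeR. Those lower were Maml1 (-0.42, adjusted p = 2.69e-04), Tle3 (-0.30, adjusted p = 7.84e-05), Dtx1 (-0.29, adjusted p = 5.39e-04) and Neurod1 (-0.26, adjusted p = 0.00422, and -0.14 with 0.225 at most on the TPM scales), by edgeR. In this comparison 37.6% of all genes passed.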

How the results depend on the processing

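All 42 member changes that passed kept their direction under every alternative run, 24 kept their call under every count-based alternative and 16 under every alternative. Notch1 kept its call in the miR-23b line with DOX, after withdrawal and against both other lines under all of them (adjusted p up to 0.0105). The count of members that passed in the difference of the miR-137 line from the control line was 2, and 1 with no filter on low counts, 1 with DESeq2, 0 with limma on either TPM scale and 1 to 3 when a library was left out. That between the miRNA lines was 3, and 5 with only the compared groups. In the control line it was 4, and 2 on both TPM scales. In the miR-137 line with DOX it was 6, and 2 on log2(TPM + 1). For the withdrawn against the no DOX miR-137 cells it was 5, and 3 on log2(TPM + 1), 2 on log2(TPM + 0.1) and 3 to 6 without a library. Leaving out a library gave 4 to 7 for the withdrawn against the 7 d DOX miR-23b cells, 2 to 3 for the same in the miR-137 line and 0 to 1 between the miR-23b and control lines without DOX. Genes called between lines without DOX numbered 947 for miR-23b and 402 for miR-137, 410 to 1207 and 146 to 545 over all alternatives, with the lowest counts on log2(TPM + 0.1), and 465 to 676 and 170 to 294 without a library. The Hes1 change in the control line, 0.12, was -0.038 without no DOX library 1. The Hes1 difference between the miRNA lines, -0.10, lay between -0.266 and 0.0714 when a library was left out: it was 0.0714 without library 2 of the miR-23b no DOX group, 0.0069 without library 3 of the miR-137 no DOX group and 0.0409 without library 3 of the miR-137 7 d DOX group. The cause of these shifts was not tested. Correlations of the deviations of same-numbered libraries lay between -0.0548 and 0.123 and were over 0.1 for every pair in 0 of the 12 comparisons, so the numbers were not taken to pair the libraries, although 20 of 24 libraries correlated best with their own number, a hint from the data only. With the replicate number as a block, 4 members passed in the control line, 5 in the miR-23b line and 6 in the miR-137 line, and 4 in the difference of the miR-23b line from the control line, where Hes6 joined (0.20, adjusted p = 0.0277). Depth limits Notch3, Dll1 and Hes1 most.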
